A study of Rattus norvegicus with 9 samples.

Results

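Amino acid transporters carry amino acids across the plasma membrane and set how much of each is open to protein synthesis, gluconeogenesis and the urea cycle. The 10 genes described here are Slc38a2, Slc38a3 and Slc38a4, which belong to the sodium-coupled neutral family, Slc7a1 and Slc7a2, which carry arginine and lysine, Slc1a4 and Slc1a5, which exchange small neutral amino acids, Slc3a2 and Slc7a5, which form a heterodimer, and Slc6a9, which carries glycine. They were chosen by name, and their probes were those whose RefSeq accession on the array belongs to one of these symbols, except both Slc7a1 probes, whose name came from the study's supplementary sheet. All 10 genes had a named probe, with 13 probes in all among the 41012 on the array, and 9 genes with 12 probes passed the filter on dim probes. The array as a whole held 13440 genes with a named probe, of which 9606 passed that filter.

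The samples were livers of male Wistar rats taken at 24 h, in 3 groups of 3. The control rats received neither drug nor radiation. The TBI rats, labelled 6.5Gy, received a total-body dose of 6.5 Gy gamma rays at 2 Gy/min. The HSC+TBI rats, labelled HSC+6.5Gy, were given Hong Shan Capsule (HSC), a Chinese herbal preparation, by mouth on 3 days in a row and then the same exposure. The HSC dose reads 10 g/kg/day in the description of the series and 30 mg/kg/day in that of the samples, and it entered no calculation. No arrays of rats given HSC without radiation were analysed here, so a difference between HSC+TBI and control holds both drug and radiation. The labels number the samples of a group without saying that each is 1 animal, and the p-values measure the spread between these samples, called rats below.

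In the liver, system A transporters such as Slc38a2 and Slc38a4 take up alanine and other short neutral amino acids together with sodium, and Slc38a3 moves glutamine, asparagine and histidine in either direction across the hepatocyte membrane. Slc38a2 is known as the member of its family whose transcript answers to amino acid shortage, hormones and cell stress. The exchangers Slc1a5 and Slc7a5 are low in resting hepatocytes and high in many dividing or activated cells. All levels below are quantile-normalized log2 signals of single probes, whose brightness also depends on the probe, so that levels are compared between rats and never between genes.

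A probe was called when limma gave a Benjamini-Hochberg adjusted p under 0.05 over the 25369 tested probes together with a fold change of at least 1.5, and a gene was counted by its brightest tested probe. Between TBI and control, 3 of the 9 tested transporters were called. Slc38a2 was higher after TBI, and Slc7a1 and Slc38a4 were lower. Over the whole array 7.25% of tested probes were called in this comparison, 3.54% as higher and 3.71% as lower. Between HSC+TBI and control 2 transporters were called, Slc38a2 as higher and Slc1a5 as lower, beside 3.23% of all tested probes, with 1.19% higher and 2.05% lower. Between HSC+TBI and TBI limma called 0 of the 9, beside 0.796% of all tested probes. At an unadjusted p under 0.05, 6 transporters passed between TBI and control, where 25.5% of all tested probes did. Between HSC+TBI and control 4 passed, beside 19.6% of all tested probes. Between HSC+TBI and TBI 3 passed, namely Slc7a1, Slc38a4 and Slc1a5, beside 16.3%.

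The 3 values of 1 group lay wholly above or below those of the other for 6 of the 9 transporters between TBI and control, 2 higher and 4 lower. The same held for 28.8% of all tested probes. It held between HSC+TBI and control for 3 transporters and 31.7% of all probes, and between HSC+TBI and TBI for 5 transporters and 21.4% of all probes. Over the 9 genes the median difference between TBI and control was -0.27, where that of all tested probes was -0.01. For HSC+TBI the median was -0.04 relative to control and -0.15 relative to TBI, where all tested probes gave 0.05 and 0.06. The -0.04 turned to 0.04 under a 75th percentile shift. Single rats moved these medians, as the -0.27 was -0.14 without TBI 1 and the -0.15 was 0.16 without HSC+TBI 3 and 0.0094 without TBI 3. The SD between the rats of a group had a median over the 9 genes of 0.19 for the controls, 0.40 after TBI and 0.29 for HSC+TBI, beside 0.17, 0.24 and 0.15 over all tested probes.

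**Figure D1:**
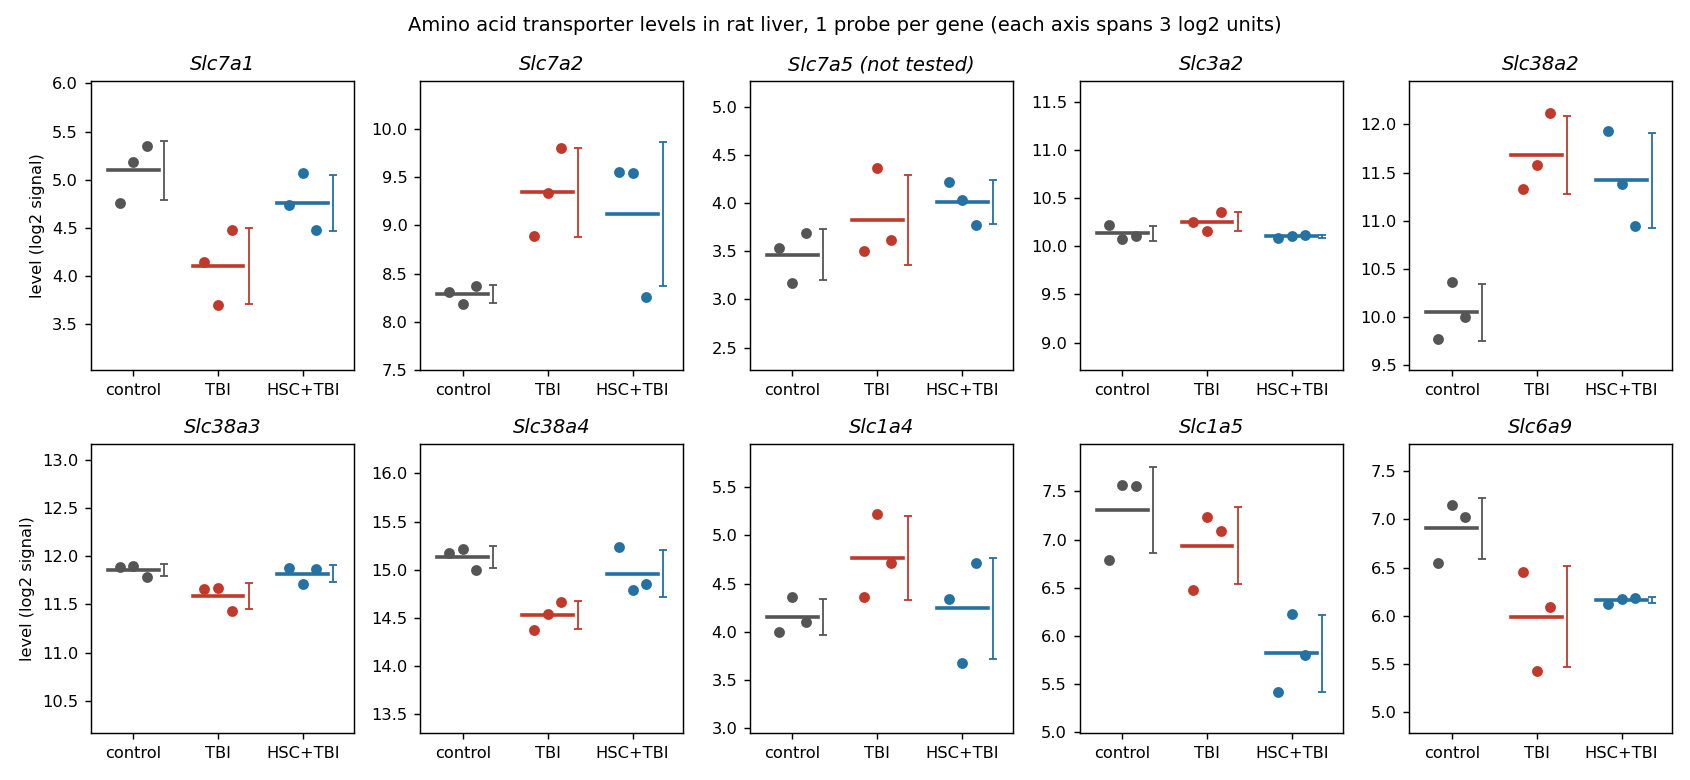
Level of each of the 10 transporters by its brightest probe in the 9 rats (log2 signal), with 1 point per rat, a line at the group mean and a bar of 1 SD beside it (n = 3). Each axis spans the same 3 log2 units but starts at its own level, and Slc38a2 stands above control in all 6 irradiated rats, while Slc1a5 is lowest in the 3 HSC+TBI rats.

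Of the transporters, Slc38a2 was the one called higher in an irradiated group, and it was called in both. Its brighter probe (A_44_P104652) read 9.78, 10.36 and 10.01 in the control rats. The TBI rats read 11.33, 11.58 and 12.12, and the HSC+TBI rats 11.93, 11.38 and 10.95. Every irradiated rat lay above every control rat, and the irradiated groups overlapped each other. The mean rose from 10.05 ± 0.30 (SD, n = 3) to 11.68 ± 0.40 after TBI, a 3.09-fold rise with a log2 difference of 1.63 (SE 0.29, adjusted p = 0.0142). It was 11.42 ± 0.49 in HSC+TBI, 2.59-fold above control, with a log2 difference of 1.37 (SE 0.29, adjusted p = 0.0422). HSC+TBI minus TBI was -0.26, with a 95% confidence interval of -0.92 to 0.41 and an adjusted p of 0.702.

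The other Slc38a2 probe (A_44_P463878) gave the same calls. It read 6.99, 7.76 and 6.92 in control rats, 8.43, 8.81 and 8.92 in TBI rats and 9.08, 8.56 and 8.19 in HSC+TBI rats. Again all irradiated rats lay above all controls, 2.82-fold in TBI (adjusted p = 0.0183) and 2.62-fold in HSC+TBI (adjusted p = 0.0397). On both probes control 2 was the highest control, and HSC+TBI 1 was the highest and HSC+TBI 3 the lowest of the HSC+TBI rats. By p-value the 2 probes ranked 727 and 933 of 25369 for TBI against control.

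On the brighter Slc38a2 probe, without control 3 the rise after TBI was 1.61 with an adjusted p of 0.0529, and it was called with any other rat left out, at 1.41 to 1.8. The difference between HSC+TBI and control was no longer called without control 1 (1.24), control 2 (1.53), control 3 (1.35), TBI 2 (1.37), HSC+TBI 1 (1.12) or HSC+TBI 2 (1.39), with adjusted p between 0.0647 and 0.143. The other probe lost its call for TBI without control 1 (1.38), control 3 (1.35) or TBI 2 (1.46), with adjusted p from 0.0566 to 0.0717. For HSC+TBI against control it lost its call without control 1 (1.27), control 3 (1.24), TBI 2 (1.39), HSC+TBI 1 (1.15) or HSC+TBI 2 (1.41), with adjusted p from 0.061 to 0.146.

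Slc38a4, known as a hepatocyte amino acid carrier, fell after TBI. Its probe (A_43_P13127) read 15.18, 15.22 and 15.00 in control rats, 14.38, 14.54 and 14.67 in TBI rats, and 15.24, 14.79 and 14.85 in HSC+TBI rats. Each TBI rat lay below each rat of the other groups, and HSC+TBI 1 lay above all controls. The mean was 15.13 ± 0.12 in control and 14.53 ± 0.15 in TBI, 1.52-fold lower, with a log2 difference of -0.60 (SE 0.15, adjusted p = 0.0469). HSC+TBI, at 14.96 ± 0.24, differed from control by -0.17 (95% interval -0.52 to 0.17, adjusted p = 0.584). It lay above TBI by 0.43 (95% interval 0.08 to 0.78) with an unadjusted p of 0.0207, which did not pass after adjustment (adjusted p = 0.218).

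The Slc38a4 call sat close to the limits of both fold and p. It was lost without control 1 (-0.58), control 2 (-0.56), control 3 (-0.67), TBI 1 (-0.53), TBI 2 (-0.61), HSC+TBI 2 or HSC+TBI 3 (both -0.60), and it held in 8 of 21 other settings, all of which kept the direction. Under the 75th percentile shift the TBI difference was -0.55 (adjusted p = 0.0684), and that between HSC+TBI and control turned to 0.05.

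Slc38a3, the glutamine carrier of the same family, moved little. It read 11.89, 11.90 and 11.79 in control rats, 11.66, 11.67 and 11.43 in TBI rats and 11.87, 11.71 and 11.86 in HSC+TBI rats. The TBI rats lay below the rats of the other groups, but the difference from control of -0.27 (95% interval -0.53 to -0.01) had an adjusted p of 0.179. HSC+TBI minus TBI was 0.23 (95% interval -0.03 to 0.49, adjusted p = 0.365), and HSC+TBI minus control -0.04 (95% interval -0.30 to 0.22).

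Slc38a2 and Slc38a4 are next to each other in RefSeq's order of protein-coding genes on chromosome 7 of the GRCr8 build, with Slc38a1 on the far side of Slc38a2. Slc38a1 was not above background on all 3 arrays of any group and was not tested. The 250 bases before the start of each are given here because these neighbours moved in opposite directions after TBI, from RefSeq at chr7:129742620-129742869 for Slc38a2 and chr7:130082170-130082419 for Slc38a4, both read on the minus strand.
Slc38a2: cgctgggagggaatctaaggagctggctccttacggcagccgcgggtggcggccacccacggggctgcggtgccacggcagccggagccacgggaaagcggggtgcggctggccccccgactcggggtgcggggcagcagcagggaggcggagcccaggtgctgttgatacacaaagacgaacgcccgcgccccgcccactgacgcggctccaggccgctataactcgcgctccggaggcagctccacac
Slc38a4: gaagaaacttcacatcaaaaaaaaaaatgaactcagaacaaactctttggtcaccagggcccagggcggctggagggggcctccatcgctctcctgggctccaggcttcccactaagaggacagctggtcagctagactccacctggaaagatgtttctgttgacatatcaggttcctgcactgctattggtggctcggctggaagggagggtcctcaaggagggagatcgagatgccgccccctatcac
Neither holds TGATGNAAN, the amino acid response element searched for, or TGACGTCA, the cyclic AMP response element, on either strand. Bases farther from the start, such as introns, were not searched.

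Of the arginine and lysine carriers, Slc7a1 was called lower after TBI by its brighter probe (A_44_P474101), at a low signal. The control rats read 4.76, 5.19 and 5.35, the TBI rats 4.14, 3.70 and 4.48, and the HSC+TBI rats 4.74, 5.07 and 4.48. TBI lay below both other groups, with TBI 3 and HSC+TBI 3 equal at the 2 decimals given, and HSC+TBI overlapped control. The mean fell from 5.10 ± 0.31 to 4.11 ± 0.39, a 1.99-fold lower level with a log2 difference of -0.99 (SE 0.25, adjusted p = 0.0436). HSC+TBI, at 4.76 ± 0.29, differed from control by -0.34 (95% interval -0.90 to 0.22, adjusted p = 0.494) and from TBI by 0.66 (95% interval 0.10 to 1.21, adjusted p = 0.239).

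The fall of Slc7a1 depended on the probe, the background correction and the rats. The other Slc7a1 probe (A_44_P543258), above background on 1 control, 3 TBI and 2 HSC+TBI arrays, read 3.95, 4.39 and 3.67 in control and 4.44, 3.24 and 4.82 in TBI rats, which overlapped, with a difference of 0.17 (95% interval -0.76 to 1.09, adjusted p = 0.830). The brighter probe's difference shrank to -0.18 under normexp background correction (adjusted p = 0.188). It missed the threshold once control 2 (-0.95), control 3 (-0.87), TBI 1 (-1.01), TBI 2 (-0.79), HSC+TBI 1 or HSC+TBI 3 (both -0.99) was left out. It was called in 9 of 21 other settings. The lowest signal marked above background on the control arrays was 3.68, close under these levels.

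The 250 bases before the Slc7a1 start, at chr12:11664238-11664487 on the plus strand of GRCr8, are shown because they hold a match to the amino acid response element, TGATGNAAN, in capitals, 30 bases before the start.
Slc7a1: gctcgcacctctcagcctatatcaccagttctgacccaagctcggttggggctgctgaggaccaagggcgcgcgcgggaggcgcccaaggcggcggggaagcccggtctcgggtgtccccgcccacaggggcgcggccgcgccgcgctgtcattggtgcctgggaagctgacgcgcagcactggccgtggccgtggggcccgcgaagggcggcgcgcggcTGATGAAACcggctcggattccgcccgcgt
In the 300-base windows given by RefSeq, 250 before to 50 after a start, 7 of the 10 genes had a promoter, 8 promoters in all, and Slc7a1 and Slc1a4 held this motif. Of all 33469 such windows, 3.97% hold it on either strand. The Slc1a4 match starts 236 bases before its start on the other strand. TGACGTCA, held by 1.83% of all windows, was in 0 of the 8. A match of letters is a description of the window. Slc7a2, Slc38a3 and Slc1a5 had no entry.

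Slc7a2, the carrier of arginine and lysine known for its high level in liver, read higher in TBI without passing. Its brighter probe (A_44_P313679) read 8.31, 8.19 and 8.37 in control rats, 8.88, 9.34 and 9.81 in TBI rats and 9.56, 9.55 and 8.26 in HSC+TBI rats. All TBI rats and HSC+TBI 1 and 2 lay above control, while HSC+TBI 3 lay among the controls. The differences were 1.05 for TBI (95% interval 0.23 to 1.87, adjusted p = 0.112), 0.83 for HSC+TBI against control (95% interval 0.01 to 1.65, adjusted p = 0.250) and -0.22 for HSC+TBI against TBI (95% interval -1.04 to 0.60). Without HSC+TBI 3, the TBI difference of the same size was called. The other probe (A_44_P313684), also above background on every array, gave smaller differences of 0.34 (adjusted p = 0.402) and 0.16 (adjusted p = 0.766), and HSC+TBI 3, at 7.95, was its lowest rat.

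Slc1a5, a sodium-dependent exchanger whose substrates include glutamine, was the transporter called lower in HSC+TBI. Its probe (A_42_P829301) read 6.79, 7.57 and 7.55 in control rats, 6.48, 7.24 and 7.09 in TBI rats, and 5.42, 6.23 and 5.80 in HSC+TBI rats. The HSC+TBI rats lay below all 6 others, and TBI overlapped control. The mean was 7.30 ± 0.45 in control and 5.82 ± 0.40 in HSC+TBI, 2.8-fold lower, with a log2 difference of -1.48 (SE 0.30, adjusted p = 0.0356). TBI, at 6.93 ± 0.40, differed from control by -0.37 (95% interval -1.05 to 0.31, adjusted p = 0.477). HSC+TBI lay 1.12 below TBI on the log2 scale (difference -1.12, 95% interval -1.80 to -0.43), where the unadjusted p of 0.00508 became an adjusted p of 0.133.

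The Slc1a5 difference from control was lost as a call without control 2 (-1.35), control 3 (-1.36), HSC+TBI 1 (-1.29), HSC+TBI 2 (-1.69) or HSC+TBI 3 (-1.48), with adjusted p from 0.0542 to 0.135. Under normexp background correction it was called at a smaller size, -0.73, and the difference from TBI was -0.51.

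**Figure D2:**
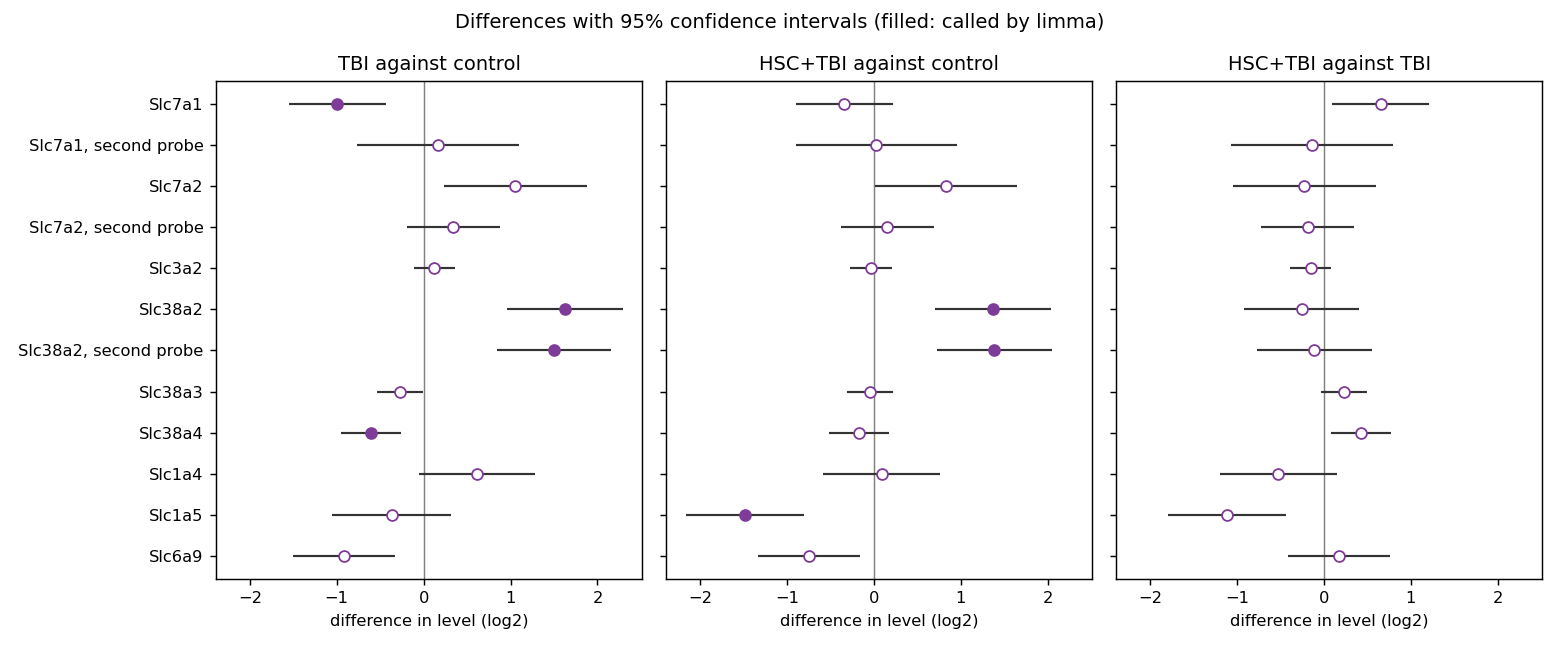
Difference in level (log2) for the 12 tested probes in the 3 comparisons, with 95% confidence intervals from limma and filled points for called probes. Both Slc38a2 probes are filled against control in each irradiated group, the probes of Slc7a1 and of Slc7a2 differ from each other, and no point is filled between HSC+TBI and TBI.

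Macrophage markers, like Slc1a5, were lowest in HSC+TBI. All 10 of 10 markers (among them Cd68, Cd163, Clec4f and Marco) were above background on every array. All 10 read lower in HSC+TBI than in TBI, at a median difference of -0.96. For 8 of them the rats of these groups did not overlap, beside 21.4% of all tested probes. With all rats limma called none of the markers, beside 0.796% of all tested probes. At an unadjusted p under 0.05, 9 passed, beside 16.3% of all tested probes. Without TBI 1 limma called 8 of the markers, while the calls over the whole array rose from 202 to 948. The log2 of their summed level was 16.48 to 17.12 in control, 16.55 to 17.45 in TBI and 16.03 to 16.15 in HSC+TBI, so that HSC+TBI lay below all other rats. For HSC+TBI against control the median was -0.60, with 0 called (3.23% of all tested probes) and 5 at an unadjusted p under 0.05 (19.6% of all tested probes). After TBI the markers and Slc1a5 differed from control in opposite directions, with Slc1a5 at -0.37 and 9 of 10 markers above control at a median of 0.28, which was 0.077 with 7 above without control 1. Fewer cells of a type and less RNA per cell cannot be told apart in whole liver, and the part of macrophages in the Slc1a5 value was not tested.

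The sums of other cell types are given beside Slc1a5. All 10 hepatocyte markers were above background on every array, with a log2 summed level of 20.27 to 20.33 in control, 20.17 to 20.43 in TBI and 20.26 to 20.35 in HSC+TBI. The lymphocyte markers, 9 of 10 with a probe, summed to 9.63 to 10.10 in control, 8.73 to 9.38 in TBI and 8.57 to 8.84 in HSC+TBI. Of 7 tested, Cd3g and Cd79b were called lower in both irradiated groups and Cd2 in TBI. Cd2 and Cd79b were above background on no TBI array, and Cd3g and Cd79b on no HSC+TBI array. The low side of those calls was background signal, so their size was not measured, and Cd79b passed the filter through control alone. Over the whole array 3.71% of tested probes were called lower in TBI and 2.05% in HSC+TBI. Against control 1 of the 7 read higher in each group, by 0.55 in TBI and 0.41 in HSC+TBI. Cd3e was above background on no array. Cd2 was called higher in HSC+TBI than in TBI, where its signal was background on every array. The lymphocyte sum was thus below control in both irradiated groups. Of the endothelial (6 tested), stellate (7), bile duct (3) and erythroid (4) markers, limma called Lrat lower and Epb42 higher in TBI against control. Over the whole array 3.71% were called lower and 3.54% higher. In the other comparisons 0 of these markers were called, beside 3.23% and 0.796% of all tested probes. For TBI the stellate list gave 0 calls without any 1 control, TBI 1 or TBI 2. The erythroid list gave 0 with any rat but control 1 left out.

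**Figure D3:**
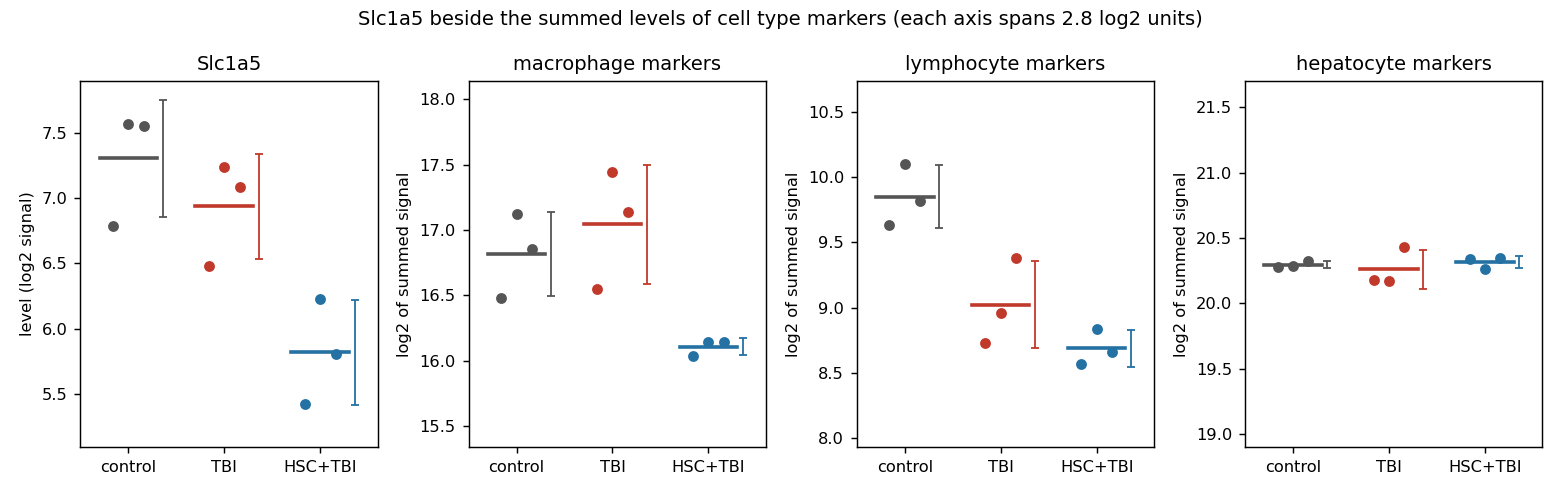
Slc1a5 level (log2 signal) and the log2 of the summed signal of the macrophage, lymphocyte and hepatocyte markers in each rat, with group mean and 1 SD (n = 3). Slc1a5 and the macrophage sum are both lowest in the 3 HSC+TBI rats, the lymphocyte sum is below control in both irradiated groups, and the hepatocyte sum stays between 20.17 and 20.43.

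Slc1a4, the exchanger of alanine, serine and cysteine in the same family, was dim. It read 3.99, 4.36 and 4.10 in control rats, 4.36, 5.22 and 4.71 in TBI rats and 4.34, 3.68 and 4.71 in HSC+TBI rats, and was above background on 2, 3 and 2 of the arrays. The groups overlapped. The differences were 0.61 (95% interval -0.06 to 1.28, adjusted p = 0.233), 0.09 (95% interval -0.58 to 0.76) and -0.52 (95% interval -1.19 to 0.15, adjusted p = 0.426) in the order of comparisons above.

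Slc3a2, the heavy chain that brings Slc7a5 and its relatives to the membrane, was the steadiest transporter. All 9 rats lay between 10.07 and 10.35, and the HSC+TBI rats between 10.09 and 10.12. TBI differed from control by 0.12 (95% interval -0.12 to 0.36, adjusted p = 0.502), HSC+TBI from control by -0.03 (95% interval -0.27 to 0.21) and HSC+TBI from TBI by -0.15 (95% interval -0.39 to 0.09). All 3 intervals leave out a change of 1.5-fold.

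Slc7a5, the light chain that carries leucine and other large neutral amino acids, was not tested. It was above background on 0 of 3 control arrays, 2 TBI arrays and 2 HSC+TBI arrays. The control rats read 3.53, 3.17 and 3.69, the TBI rats 3.50, 4.36 and 3.62, and the HSC+TBI rats 4.22, 4.04 and 3.77. All HSC+TBI rats lay above control. Since no control array and only some arrays of the other groups measured the gene, no fold is given.

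Slc6a9, the glycine carrier also called GlyT1, read lower in both irradiated groups without passing. The control rats read 6.55, 7.15 and 7.03, the TBI rats 6.46, 5.42 and 6.09, and the HSC+TBI rats 6.13, 6.17 and 6.19. All 6 irradiated rats lay below all controls, and the HSC+TBI rats were closer to each other (SD 0.03) than the TBI rats (SD 0.52). The difference was -0.92 for TBI (95% interval -1.51 to -0.33, adjusted p = 0.0663) and -0.75 for HSC+TBI (95% interval -1.34 to -0.16, adjusted p = 0.161). Between the irradiated groups it was 0.17 (95% interval -0.42 to 0.76).

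**Figure D4:**
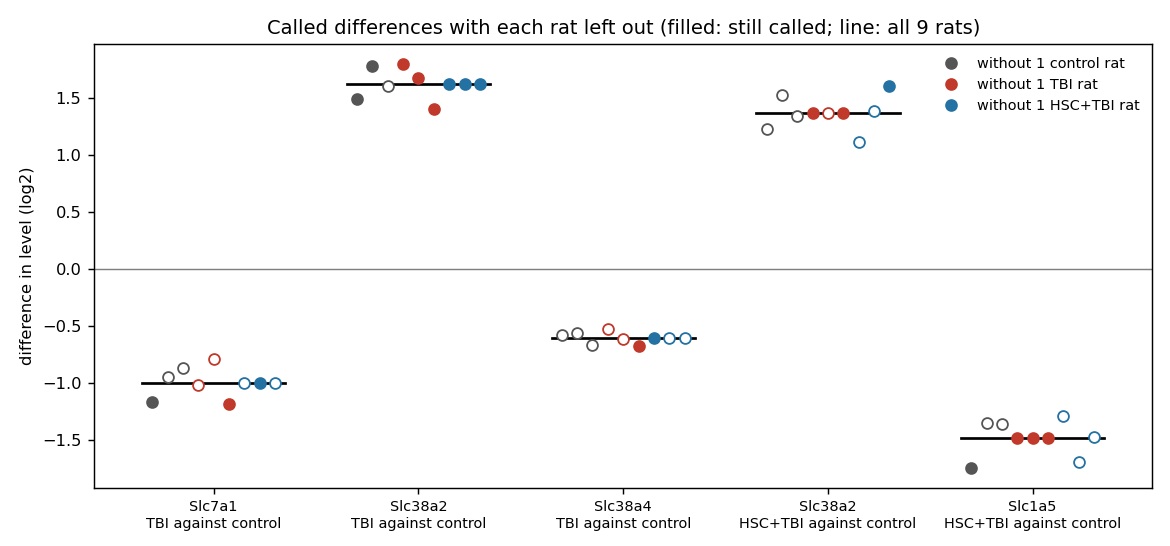
Difference in level (log2) of the 5 called results, with each of the 9 rats left out in turn, coloured by the group of the rat, filled where limma still called it, beside a line for all 9 rats. Each result keeps its sign throughout, Slc38a2 in TBI against control is called in 8 of 9 cases, and the others in 2 to 4 of 9.

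The probes whose centred profile over the 9 arrays lay nearest to each called transporter were sought among the 10975 probes that had a name and a signal above background in every rat, as a description. The measure was the root mean square of the differences between log2 values, each probe centred on its own mean. For Slc38a2 they were those of Tat at 0.23, Coq10b at 0.23 and Dapk1 at 0.24, where the SD of Slc38a2 itself was 0.84. Tat, tyrosine aminotransferase and the hepatocyte marker called higher in TBI against control (adjusted p = 0.0287), read 9.13, 10.06 and 8.83 in control rats, 10.53, 10.84 and 11.24 in TBI rats and 11.12, 10.71 and 10.41 in HSC+TBI rats. As in Slc38a2, control 2 was its highest control, TBI 3 its highest TBI rat and HSC+TBI 1 its highest HSC+TBI rat. Tat was picked for its likeness to Slc38a2 over these same 9 arrays, so this shared order is no separate result. In TBI against control the hepatocyte list gave 0 calls without control 1, control 3 or TBI 2. Slc38a4 was nearest to Nr1i2 at 0.10, Nfib at 0.11 and Ctdspl at 0.12, beside its own SD of 0.31. Slc1a5 was nearest to Ripk3 at 0.14, Bak1 at 0.17 and Tnfaip8 at 0.19, beside an SD of 0.76. Slc7a1 was nearest to Olfml3 at 0.18, Pus7 at 0.21 and Ptger3 at 0.23, beside an SD of 0.52.

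The other amino acid transporters of the plasma membrane gave no called gene. Of 26 listed, 23 had a named probe and 13 were tested. Limma called 0 of 13 in each comparison, while 4, 1 and 3 passed an unadjusted p under 0.05 in the same order of comparisons as before, beside 25.5%, 19.6% and 16.3% of all tested probes. After TBI 11 of 13 read above control, beside 12506 of all 25369 tested probes. The median difference of the 13 was 0.42, with a range of -0.23 to 1.05, and under normexp background correction it was 0.09. A probe could pass the filter through TBI alone, where more probes were above background. Slc7a9, at a mean of 3.09 in control and 3.99 in TBI, lay near the lowest signal above background. What the filter added to this count was not tested. Without TBI 3 or control 1 the median was 0.22, without control 3 it was 0.26, and without TBI 2, 8 of 13 read above control. The median was 0.02 for HSC+TBI against control and -0.40 for HSC+TBI against TBI. Without HSC+TBI 2 these were 0.16 and -0.24, and without control 1 the first was -0.04. Among the 10 with a probe that was too dim to test were the cystine exchanger Slc7a11 and the glutamine carriers Slc38a1 and Slc38a5.

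Of the amino acid carriers of mitochondria and lysosomes, 7 of 14 were tested. Between TBI and control 1 was called, beside 7.25% of all tested probes. Slc25a22, a mitochondrial glutamate carrier, read 11.60, 11.64 and 11.61 in control rats, 12.50, 12.39 and 12.32 in TBI rats and 12.31, 12.47 and 11.97 in HSC+TBI rats. All irradiated rats lay above control, with a log2 difference of 0.78 after TBI (SE 0.14, adjusted p = 0.0146), lost only without control 3 among the 21 other settings. No carrier of this list was called by limma between HSC+TBI and control or TBI, beside 3.23% and 0.796% of all tested probes. In these comparisons 1 and 0 passed an unadjusted p under 0.05, beside 19.6% and 16.3% of all tested probes. The 1 was Slc25a22, which stood 1.55-fold above control in HSC+TBI, at a log2 difference of 0.63 (SE 0.14) and an adjusted p of 0.0506. In that comparison 1 gene of the list was called under the 75th percentile shift, under normexp, with the authors' values and without HSC+TBI 3.

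Genes known to be induced by amino acid shortage and cell stress moved unevenly, with 17 of 21 tested. Between TBI and control 4 were called higher and 0 lower, beside 3.54% and 3.71% of all tested probes. At an unadjusted p under 0.05, 10 passed, beside 25.5% of all tested probes. Chac1, which degrades glutathione, rose by 4.0 on the log2 scale (adjusted p = 0.0194), from 6.0, 8.66 and 6.79 in control to 10.48, 11.10 and 11.87 in TBI rats. Ppp1r15a, which reverses the translation block of this response, rose by 1.75 (adjusted p = 0.0150), Sesn2, a stress-induced brake on mTORC1 signalling, by 0.98 (adjusted p = 0.0168), and the transcription factor Cebpb by 0.76 (adjusted p = 0.0356). Control 2 was the highest control for Chac1 and Ppp1r15a, as for Slc38a2. For Sesn2 it was the lowest control, at 6.51, and for Cebpb controls 2 and 3 both read 8.86. Leaving out 1 rat ended some of these calls. Chac1 lost its call without control 1 (3.43), control 3 (3.82) or TBI 2 (4.03), Ppp1r15a without control 3 (1.79), and Sesn2 without control 1 (0.97) or control 2 (0.94) and under normexp (0.54). Cebpb was called in 8 of 21 other settings, and of the 9 with 1 rat left out only without TBI 2, at 0.61 to 0.83 without the others.

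Other genes of the list were not called between TBI and control, and they read in both directions. Ddit4 was higher by 0.59 (adjusted p = 0.0757), with no overlap between the rats, and Atf3 by 1.82 (adjusted p = 0.205). Between TBI and control the rats did not overlap for 5 genes higher and 6 lower, beside 28.8% of all tested probes in either direction. Eif4ebp1 fell by 0.56 on the log2 scale (difference -0.56, adjusted p = 0.0197), 1.47-fold and so short of the fold for a call. Phgdh differed by -1.56 (adjusted p = 0.0941). The asparagine synthetase gene Asns differed by -0.04 after TBI, and the list's median was -0.05 with 7 genes higher and 10 lower. Sesn2 was also called higher in HSC+TBI than in control, at 0.91 (adjusted p = 0.0367), a call that was lost in 9 of 21 other settings, among them without any 1 control or without HSC+TBI 1 or 2, at 0.77 to 0.97. Chac1 read 11.48, 9.01 and 10.51 in HSC+TBI rats, all above control and 9.13-fold higher in the mean, with a log2 difference of 3.19 (SE 0.78) and an adjusted p of 0.068 that did not pass. Limma called 0 of 17 between HSC+TBI and TBI, with 2 at an unadjusted p under 0.05, beside 0.796% and 16.3% of all tested probes.

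**Figure D5:**
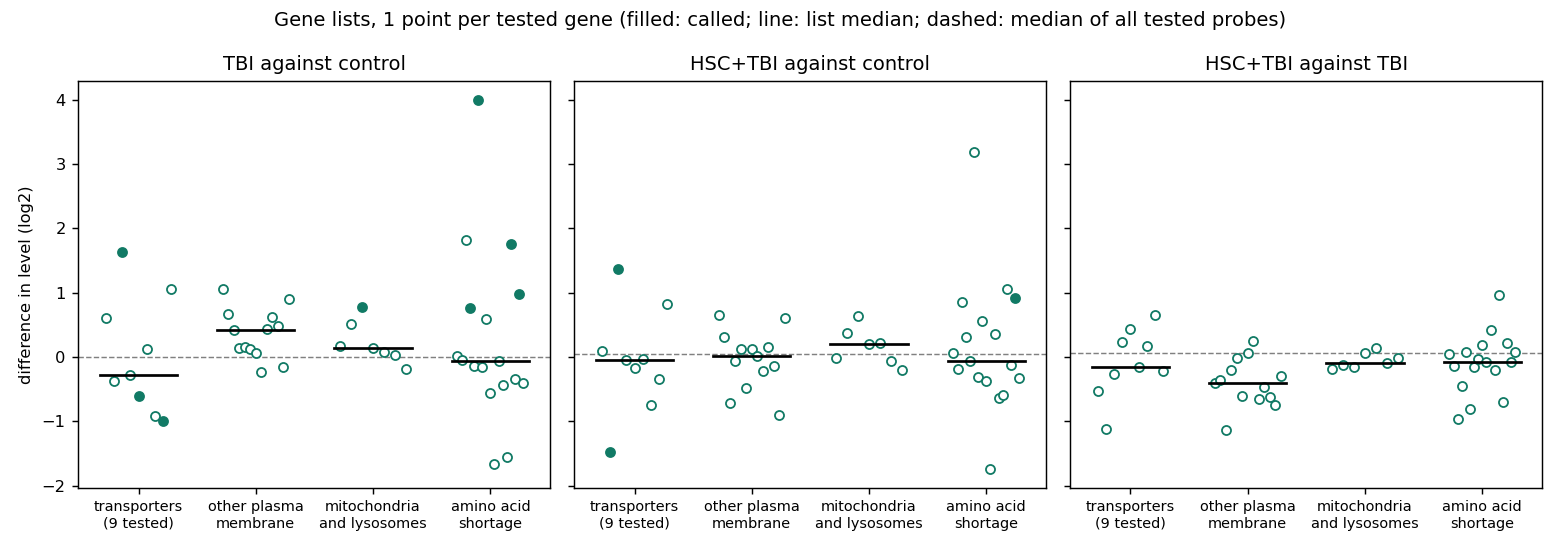
Difference in level (log2) of each tested gene in 4 lists (the transporters described here, other plasma membrane carriers, carriers of mitochondria and lysosomes, and genes of the response to amino acid shortage) in the 3 comparisons, with filled points for called genes, a line at the list median and a dashed line at the median of all tested probes. In TBI against control the other plasma membrane carriers have a median of 0.42 with no filled point, and the shortage list spans -1.66 to 4.0 around a median of -0.05.

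The arrays of each group lay on slides of their own, the controls on slide 1, TBI on slide 2 and HSC+TBI on slides 3 and 4, so slide and group cannot be told apart in any comparison. The share of probes above background was 56.6% to 59.3% on control, 63.6% to 69.5% on TBI and 58.7% to 60.5% on HSC+TBI arrays. The number of arrays limits the precision, since an exact two-sided permutation test of 3 rats against 3 cannot go below p = 0.1.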

How the data were processed

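Liver RNA of 9 rats was measured on 1-colour Agilent whole rat genome arrays with 41012 probes, 3 arrays per group. Per the labels and file headers, the authors read spot intensities with Agilent's Feature Extraction software (10.7.3.1 in the headers), which gave a processed signal and quality flags per spot. The authors then applied quantile normalization in GeneSpring, and the deposited table of log2 values, 1 for each probe on each array, served as an alternative. The genome build of the array design was not needed, and coordinates given are those of RefSeq on GRCr8.

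Here, control spots and outlier spots (84 to 115 of 43379 per array, 0 saturated) were left out. A floor of 1 was set on the processed signal before log2 was taken, quantile normalization ran across the 9 arrays, and spots of 1 probe were averaged. The values differed from the authors' by a median of 0.03 (log2). The 25369 probes that the flags put well above background in every rat of 1 group or more were compared by limma 3.58.1 in R 4.3.3, with lmFit and eBayes in 1 fit of 3 group means and Benjamini-Hochberg adjustment over all tested probes. The fit took no covariate. The script was tested on simulated data.

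RefSeq accessions named 16959 probes through a RefSeq gene table, and 14 more, those of Slc7a1 among them, took their name alone from the study's supplementary sheet, which also holds the authors' fold changes, not used here. The transporters, the other lists and the tests were chosen with earlier results of these data known. Named were all 10 transporters with every probe, members of the lists called in any comparison, a few further members beside a count, chosen after their values were seen, and for each called transporter the 3 nearest profiles. The alternatives were another scaling, background correction, filter, test, sample set and block, the authors' values, and each rat left out. For called genes of the mitochondria and lysosome list and of the shortage list they were added after seeing the data. Called cell type markers were followed only through counts and medians of their list, in some of these settings.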

Additional observations from a re-analysis of the deposited data

How the results depend on the processing

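Counts of called transporters moved with the processing. Between TBI and control (3 with the settings above) the count was 1 under the 75th percentile shift, normexp, no filter on dim probes or only the 2 groups compared, 0 with the adjusted t-test of the methods, and 6 with the slide as a random block (consensus correlation -0.33, with no slide shared by groups). Between HSC+TBI and control (2) it was 0 without the filter and with the adjusted t-test. Between HSC+TBI and TBI (0) it was 1 by the unadjusted t-test and 2 with the slide block. With each rat left out the counts ran from 0 to 3, from 0 to 2 and from 0 to 0. Over all groups, the r of the rats' deviations was -0.14 to 0.19 in same-numbered pairs and -0.12 to 0.14 in others. Between control and TBI the same-numbered pairs gave 0.19, 0.12 and 0.10, above the other pairs at -0.12 to 0.02. Whether replicate numbers pair these rats was not tested. With a replicate block the counts were 1, 1 and 1, the last being Slc1a5.

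The differences that changed sign were all uncalled. Against control in HSC+TBI, the 75th percentile shift gave -0.042 for the dimmer Slc7a1 probe, 0.040 for Slc3a2, 0.091 for Slc38a3 and 0.047 for Slc38a4, normexp gave -0.022 for that Slc7a1 probe and 0.0067 for Slc3a2, and the slide block gave -0.031 for the Slc7a1 probe. With each rat left out the dimmer Slc7a1 probe ran from -0.16 to 0.63 for TBI against control. For HSC+TBI against control it ran from -0.22 to 0.22, the dimmer Slc7a2 probe from -0.028 to 0.43, Slc3a2 from -0.060 to 0.015, Slc38a3 from -0.079 to 0.0089 and Slc1a4 from -0.14 to 0.37. For HSC+TBI against TBI the dimmer Slc7a1 probe ran from -0.60 to 0.19, the Slc7a2 probes from -0.45 to 0.21 and from -0.37 to 0.086, the dimmer Slc38a2 probe from -0.35 to 0.10 and Slc6a9 from -0.11 to 0.41. The cause of these moves was not tested. Dim signal limits Slc7a1, Slc7a5 and Slc1a4, which lay near background, and the other probes were above background on every array.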
